A study of Mus musculus with 6 samples.

Results

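The respiratory chain and ATP synthase of mitochondria are assembled from subunits that 2 genomes encode, and the transcripts of 90 of these subunits were followed here in mouse macrophages. The genes were picked by name. A protein-coding row of the expression table was taken when its symbol marked a subunit of complex I, III, IV or V (Nduf, Uqcr, Cyc1, Cox, Atp5, or an mt- symbol) and when it had at least 10 counts in at least 3 of the 6 libraries. Of 97 rows that fitted by symbol, 90 met the count minimum, out of 41549 genes in the table. Among them were 77 nuclear genes on 19 chromosomes, and the 13 protein genes of the mitochondrial genome. Nuclear genes supplied 36 rows of complex I, 9 of complex III, 14 of complex IV and 18 of complex V, and mitochondrial genes supplied 7, 1, 3 and 2. The other 7 rows reached at most 4 counts in any library and were paralogs such as Cox4i2, Cox6b2, Cox8b and Ndufa4l2.

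The macrophages (Mφs) were grown for 7 days with macrophage colony-stimulating factor from the bone marrow of wild-type C57Bl/6 N mice that were 10 to 12 weeks old. Before polarization the naive cells were transfected with a control antisense oligonucleotide (Ctr) or with a locked nucleic acid inhibitor of 5′tRF-Glu(CTC), a fragment cut from the 5′ side of tRNA-Glu (αGlu). Both groups were then kept for 48 h with IL-4 plus IL-13, a treatment that drives the anti-inflammatory M2 state, and each gave 3 mRNA libraries, which the study describes as independent experiments. Whether a library held cells of 1 mouse or of several is not given in the sources used here.

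Complex I passes electrons from NADH to ubiquinone, complex III hands them on to cytochrome c, complex IV reduces oxygen with them, and complex V makes ATP from the proton gradient that the other complexes build. The mitochondrial genome encodes hydrophobic catalytic or proton-conducting subunits. Its messages are cut from long transcripts of either strand, which gives neighbouring genes a common source. Nuclear subunits are made in the cytosol and imported. M2 Mφs are known to rely on oxidative phosphorylation, whereas Mφs activated by LPS rely more on glycolysis.

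The perturbation is shown first, since every comparison rests on it. The inhibitor has 20 bases and is complementary to bases 2 to 21 of its stated target of 21 bases, written in the DNA alphabet 5′ to 3′.
αGlu inhibitor: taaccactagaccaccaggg
5′tRF-Glu(CTC) target: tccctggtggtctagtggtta
The level of the fragment itself was not measured in these mRNA libraries, so they hold no check of the targeted RNA.

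Total counts per library ranged from 17912831 to 30386653. Levels are given as CPM, reads of a gene scaled to the depth of its library. Over log2 CPM of the 11933 genes tested, Pearson's r was 0.978 to 0.988 between Ctr libraries and 0.992 between αGlu 2 and αGlu 3. The library αGlu 1 stood apart from its own group, with an r of 0.929 to αGlu 2 and to αGlu 3 and of 0.966 to 0.982 to the Ctr libraries. Since these libraries hold no measure of the fragment, it was not tested whether αGlu 1 carries the right label or took up as much inhibitor as αGlu 2 and αGlu 3. Counts of members, and the values of many single genes, are therefore given with and without αGlu 1. All 7 macrophage markers were expressed, with summed levels of 11369 to 13522 CPM in Ctr and 12385 to 20229 CPM in αGlu. All 8 markers of the response to IL-4 and IL-13 summed to 2802 to 4526 CPM in Ctr and 3970 to 7333 CPM in αGlu. Chil3 was the highest of these 8, and the sums do not give the direction of single markers. The 6 neutrophil markers summed to 1.04 to 4.09 CPM in Ctr and 1.49 to 2.44 CPM in αGlu, with Ly6g and Retnlg at 0 in all libraries. None of the markers of dendritic cells, fibroblasts, lymphocytes or mast cells exceeded a mean of 1 CPM.

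Per unit of transcript length, the mitochondrial messages were far more abundant. In TPM, which is scaled to gene length as well as depth and averaged here over the 6 libraries, the median mitochondrial subunit was at 3886 and the median nuclear subunit at 108, a ratio of 36.1. mt-Co1, the catalytic core of complex IV, was highest at 22665 TPM. mt-Nd6, the only mitochondrial member read from the other strand of that genome, was lowest among mitochondrial members at 8.51 TPM. How well these mRNA libraries captured its message was not tested. Nuclear members spanned 2.85 TPM for Cox7a1, a muscle isoform of a complex IV subunit, to 526 TPM for Cox6b1. The most abundant nuclear members of the other complexes were Atp5a1 at 514, Uqcr10 at 294 and Ndufa13 at 227 TPM.

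With all 6 libraries, no member was called between αGlu and Ctr, and the background was equally empty. edgeR's quasi-likelihood test with Benjamini-Hochberg adjustment called 0 of the 90 members at an adjusted p under 0.1, against 0% of all genes tested. The smallest adjusted p of a member was 0.152 and that of any gene 0.149, and limma-voom called 0 genes as well. At an unadjusted p under 0.05, which is no call, 8 nuclear members were higher and 7 lower, or 10.4% and 9.09%, against 12.7% and 11.9% of all genes. Of the 13 mitochondrial members 5 were lower by that measure, or 38.5%, and 0 were higher. For these bulk libraries, fewer mitochondria or fewer transcripts in each cannot be told apart, nor can fewer cells of a type and less RNA per cell.

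The groups of 3 libraries did not overlap for 12 nuclear members that were higher in αGlu and 12 that were lower, each 15.6% of 77, while 14.2% of all genes did not overlap and were higher and 15.9% were lower. The nuclear members therefore separated about as often as other genes. With library size alone in place of TMM factors the nuclear counts were 11 higher and 6 lower. Of the mitochondrial members, 7 were lower without overlap, or 53.8% of 13, and 0 were higher (5 and 0 with library size alone). The median log2 fold change (αGlu over Ctr) was -0.01 over nuclear members, -0.48 over mitochondrial members and 0.02 over all genes tested.

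Without αGlu 1 the test called many genes, 23.5% of 12340 as higher and 25.6% as lower. Among nuclear members 14 rose and 11 fell in that fit, or 18.2% and 14.3%, both below the background. Among mitochondrial members 5 fell, or 38.5%, and 0 rose, and their median was -0.40. By overlap of the remaining 5 libraries, 23 nuclear members were higher and 20 lower, or 29.9% and 26%, against 33.7% and 32.2% of all genes. Of the 13 mitochondrial members 7 were lower by that measure, or 53.8%, and 0 were higher, against the same shares of all genes. DESeq2 on all 6 libraries called 7.71% of 13742 genes as higher and 8.1% as lower. It called 4 nuclear members in each direction, or 5.19%, and 6 mitochondrial members as lower, or 46.2%. The mitochondrial genes of a strand come from common transcripts, so their 13 values are not independent of each other.

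**Figure D1:**
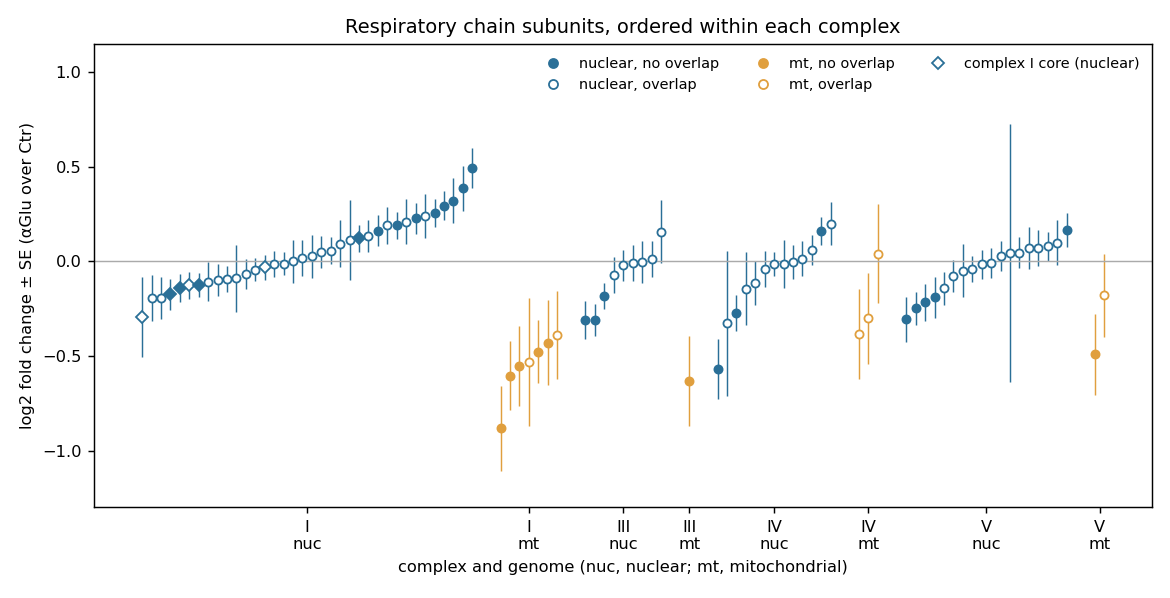
Log2 fold change of each subunit, αGlu over Ctr, with its standard error from the quasi-likelihood fit of all 6 libraries, ordered within each complex and genome; filled symbols have groups of 3 libraries that do not overlap, diamonds are the nuclear core subunits of complex I, and Cox6a2 at 1.79 lies off the axis and is not drawn. Of the 13 mitochondrial members 12 lie below 0 and 7 of these are filled, whereas nuclear members lie on both sides of 0 in every complex.

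The mitochondrial members of complex I build its proton-pumping membrane arm. mt-Nd3 (chrM:9459-9806 on GRCm38, a gene without introns like all of these) lies at the junction with the peripheral arm. Its CPM values were 123, 69.3 and 91.0 in Ctr 1 to 3 and 43.8, 56.3 and 53.5 in αGlu 1 to 3. All αGlu libraries lay below all Ctr libraries, and the log2 difference was -0.88 ± 0.22 (SE; 3 libraries a group, adjusted p = 0.156), the lowest of the 90 members. Without αGlu 1, mt-Nd3 fell by 0.79 on the log2 scale (adjusted p = 0.0366).

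mt-Nd1 (chrM:2751-3707), which helps to form the ubiquinone pocket, gave 1799, 1250.3 and 1450.3 CPM in Ctr and 901, 1007 and 1055 CPM in αGlu. The groups were again apart, at a log2 difference of -0.60 ± 0.18 (adjusted p = 0.160), and without αGlu 1 mt-Nd1 fell by 0.55 (adjusted p = 0.0401). The proton channel subunit mt-Nd2 (chrM:3914-4951) stood at 1333, 937 and 1108 CPM in Ctr and 774, 828 and 825 CPM in αGlu. The 3 αGlu values were close together and below each Ctr value, at -0.48 ± 0.17 (adjusted p = 0.174). mt-Nd4 (chrM:10167-11544), another proton channel subunit, had 2607, 1617 and 1948 CPM in Ctr and 1343, 1439 and 1427 CPM in αGlu. Its groups did not overlap either, at -0.55 ± 0.21 (adjusted p = 0.189). In the fit without αGlu 1, mt-Nd2 and mt-Nd4 also fell, with adjusted p-values of 0.0639 and 0.0837.

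mt-Nd5 (chrM:11742-13565), the last proton channel subunit of the arm, was near the limit of separation. It gave 2234, 1329 and 1547 CPM in Ctr and 1309, 1227 and 1261 CPM in αGlu. The lowest Ctr and the highest αGlu library were almost level, the log2 difference was -0.43 ± 0.22 (adjusted p = 0.272), and no call followed without αGlu 1 (adjusted p = 0.147). mt-Nd4l (chrM:9877-10173) had 277, 169 and 155 CPM in Ctr and 148, 148 and 162 CPM in αGlu, so that only Ctr 1 stood clearly above the rest. mt-Nd6 (chrM:13552-14070, minus strand) was rare, with 28 to 50 counts per Ctr library and 16 to 39 counts per αGlu library, and its groups overlapped.

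Complex III has 1 mitochondrial subunit, mt-Cytb (chrM:14145-15288), which carries both of its quinone sites. It stood at 2812, 1735 and 1896 CPM in Ctr and 1201, 1534 and 1421 CPM in αGlu. All αGlu libraries were lower, at -0.63 ± 0.24 (adjusted p = 0.185), and without αGlu 1 mt-Cytb fell by 0.54 (adjusted p = 0.0931).

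The subunits of the ATP synthase are mt-Atp6, part of the proton path, and mt-Atp8, a small stalk protein. mt-Atp6 (chrM:7927-8607) gave 3451, 2407 and 2816 CPM in Ctr and 1739, 2301 and 2129 CPM in αGlu. The groups did not overlap, but Ctr 2 and αGlu 2 were close, and the difference was -0.49 ± 0.21 (adjusted p = 0.217). No call followed for mt-Atp6 without αGlu 1 (-0.39, adjusted p = 0.109). mt-Atp8 (chrM:7766-7969) stood at 231, 165 and 138 CPM in Ctr and 131, 164 and 177 CPM in αGlu, with overlap. The 2 genes share 43 bases of a common message, where the start codon of mt-Atp6, in capitals, sits inside the reading frame of mt-Atp8. The stretch is printed because reads from it fit both genes, and how the authors' counting assigned them is not given in the sources used here.
mt-Atp8 and mt-Atp6, chrM:7927-7969, plus strand, GRCm38: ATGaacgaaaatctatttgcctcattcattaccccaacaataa
mt-Nd4l and mt-Nd4 likewise share 7 bases, mt-Atp6 and mt-Co3 share 1 base, and mt-Nd5 and mt-Nd6 overlap by 14 bases on opposite strands.

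The 3 mitochondrial members of complex IV overlapped between the groups. mt-Co1 (chrM:5328-6872), which holds the site of oxygen reduction, stood at 12492, 9732 and 11029 CPM in Ctr and 9556, 12869.8 and 11809.6 CPM in αGlu. No group was above the other, at a log2 difference of 0.04 ± 0.26 (adjusted p = 0.927), and it was the only mitochondrial member whose difference was above 0. Its sign turned when Ctr 2 or αGlu 2 was left out. mt-Co2 (chrM:7013-7696), which receives electrons from cytochrome c, gave 3278, 2330.3 and 2612 CPM in Ctr and 1682, 2529 and 2466 CPM in αGlu. In mt-Co2 only αGlu 1 lay outside the Ctr range, and the difference was -0.30 ± 0.24 (adjusted p = 0.441). mt-Co3 (chrM:8607-9390), the remaining core subunit, had 2362, 1571 and 2007 CPM in Ctr and 1173, 1673 and 1710.3 CPM in αGlu. Here too only αGlu 1 lay below all Ctr libraries, at -0.38 ± 0.24 (adjusted p = 0.333).

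**Figure D2:**
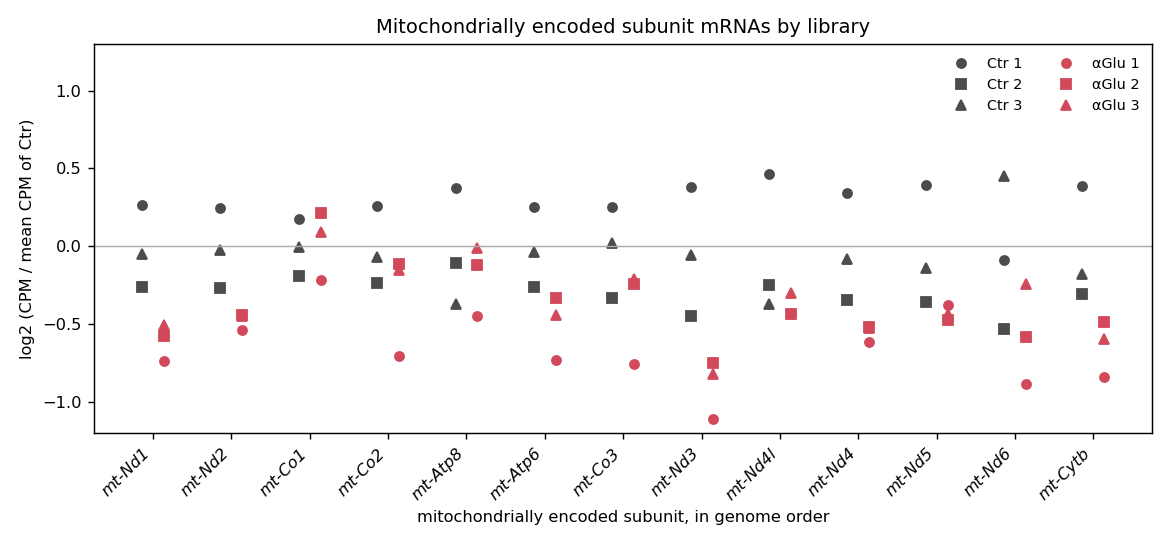
CPM of each mitochondrially encoded subunit in each library, as the log2 ratio to the mean of the 3 Ctr libraries, with genes in the order of the mitochondrial genome, Ctr in grey and αGlu in red. αGlu 1 is the lowest library for 12 of the 13 genes and Ctr 1 the highest for 11, whereas the 3 αGlu libraries of mt-Co1 spread around 0.

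Ratios within a library do not depend on the scaling between libraries. They were chosen after the values of mt-Co1 had been seen and are given without a test. The share of mt-Co1 in all mitochondrial subunit reads was 37.9%, 41.7% and 41.2% in Ctr and 47.8%, 49.9% and 48.2% in αGlu. Every αGlu library was above every Ctr library, with means of 40.3% ± 2.10 (SD, n = 3) and 48.6% ± 1.14, and the difference of 8.39 percentage points was 8.82 without αGlu 1. The shares of mt-Nd1, mt-Nd2, mt-Nd3, mt-Nd4, mt-Atp6 and mt-Cytb were lower in all αGlu libraries, whereas those of mt-Co2, mt-Co3, mt-Nd5, mt-Nd4l, mt-Nd6 and mt-Atp8 overlapped. The share of mt-Nd3 was 0.373%, 0.297% and 0.340% in Ctr and 0.219%, 0.218% and 0.218% in αGlu, so the αGlu libraries, αGlu 1 included, were nearly level with each other. The share of mt-Cytb was 8.52%, 7.44% and 7.08% in Ctr and 6.0%, 5.95% and 5.80% in αGlu.

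The reads of all 13 mitochondrial members were 5.17, 3.93 and 4.59 per read of the 77 nuclear members in Ctr and 3.50, 4.51 and 4.17 in αGlu. The groups overlapped, and the mean log2 ratio differed by -0.17 (SD 0.20 in Ctr and 0.19 in αGlu), or by -0.06 without αGlu 1. With mt-Co1 left out, the ratio was 3.21, 2.29 and 2.70 in Ctr and 1.83, 2.26 and 2.16 in αGlu. All αGlu libraries then lay below all Ctr libraries, narrowly for αGlu 2 against Ctr 2, and the log2 difference was -0.39, or -0.29 without αGlu 1. Nuclear subunits took 0.564% to 0.632% of all reads in Ctr and 0.557% to 0.628% in αGlu.

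**Figure D3:**
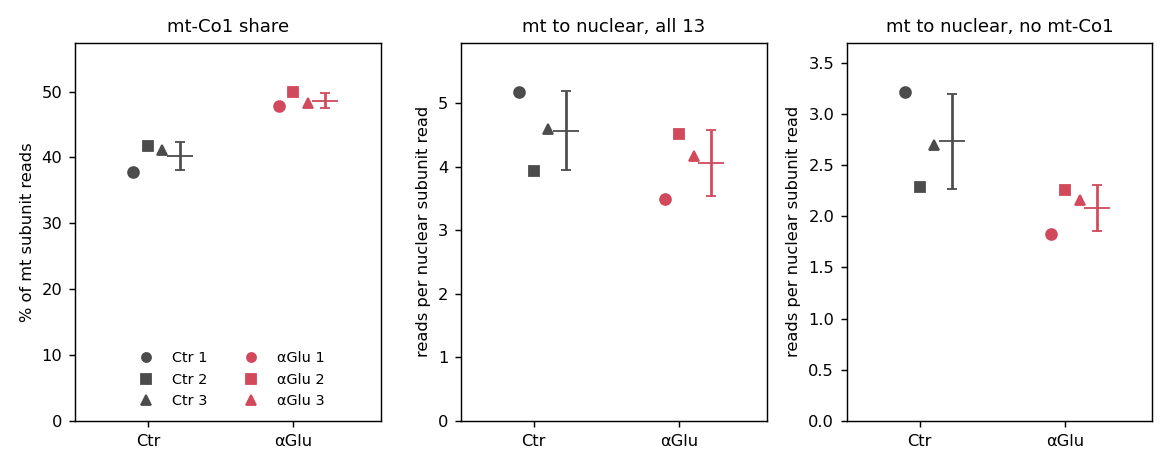
Share of mt-Co1 in the reads of the 13 mitochondrial subunits (left), and reads of mitochondrial subunits per read of nuclear subunits with mt-Co1 (middle) and without it (right), for each library, with bars for the mean and SD of 3 libraries. The mt-Co1 share is 37.9% to 41.7% in Ctr and 47.8% to 49.9% in αGlu, and the ratio overlaps between the groups only when mt-Co1 is counted.

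The mitochondrial rRNAs are no members, but come from the same strand as most of the messages. mt-Rnr2, the large rRNA, stood at 186, 216 and 179 CPM in Ctr and 123, 104 and 98.6 CPM in αGlu. All αGlu libraries were lower, at -0.84 ± 0.13 (adjusted p = 0.149), and without αGlu 1 it fell by 0.94 (adjusted p = 0.00112). mt-Rnr1, the small rRNA, gave 78.1, 138 and 142 CPM in Ctr and 90.0, 48.1 and 41.3 CPM in αGlu, with αGlu 1 inside the Ctr range. Without αGlu 1 it fell by 1.42 (adjusted p = 0.00771). In libraries selected for poly(A) such rRNA reads cover only a part of the molecules.

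Nuclear complex I held most of the members that were higher. Of its 36 members 9 were higher and 3 lower without overlap, or 25% and 8.33% against 14.2% and 15.9% of all genes, and the median log2 fold change was 0.02. Ndufb3 (chr1:58586384-58595964), an accessory subunit of the membrane arm, gave 21.03, 20.4 and 20.1 CPM in Ctr and 25.1, 29.8 and 31.7 CPM in αGlu. The Ctr libraries were nearly level and all αGlu libraries higher, at 0.49 ± 0.11 (adjusted p = 0.152, the smallest of the members), and without αGlu 1 Ndufb3 rose by 0.58 (adjusted p = 0.00161). Ndufc2 (chr7:97400003-97407802), another accessory subunit of the membrane arm, had 33.7, 28.2 and 31.8 CPM in Ctr and 35.4, 45.1 and 42.0 CPM in αGlu. αGlu 1 exceeded the highest Ctr library by little and the other two by more, at 0.39 ± 0.12 (adjusted p = 0.161), and without αGlu 1 it rose by 0.47 (adjusted p = 0.00954). Ndufa3, a small accessory subunit, stood at 23.1, 23.4 and 22.6 CPM in Ctr and 27.3, 27.1 and 30.4 CPM in αGlu. The groups were far apart for their spread, at 0.30 ± 0.08 (adjusted p = 0.156), and without αGlu 1 it rose by 0.31 (adjusted p = 0.0239).

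A split of complex I into its conserved core and its accessory subunits was made after the values had been seen, and is a description. The nuclear core, the subunits that bacterial forms of the enzyme also have, carries the flavin and the iron-sulphur clusters or frames the quinone site. Of these 7 subunits, 6 had a log2 fold change below 0, with a median of -0.13. Ndufs1, Ndufv1 and Ndufv2 were lower without overlap and Ndufs3 was higher, or 42.9% and 14.3% of 7, against 15.9% and 14.2% of all genes. Of the 29 accessory subunits 19 were above 0, with a median of 0.06. Without overlap 8 were higher and 0 lower, or 27.6% and 0%, against 14.2% and 15.9% of all genes. The core differences were small: Ndufs1, which holds several of the clusters, went from 87.2, 77.4 and 80.3 CPM in Ctr to 76.9, 70.7 and 69.5 CPM in αGlu, at -0.17 ± 0.08 (adjusted p = 0.241). Ndufs3 was the exception among core subunits, at 51.2, 49.9 and 56.0 CPM in Ctr and 57.1, 57.4 and 56.5 CPM in αGlu, with αGlu 3 just above Ctr 3. Ndufs8 had the lowest log2 fold change of nuclear complex I, -0.29 ± 0.21, with 40.9, 43.2 and 36.5 CPM in Ctr and 44.0, 25.7 and 29.0 CPM in αGlu. Its αGlu 1 was above the Ctr libraries and the other αGlu libraries below them, and without αGlu 1 it fell by 0.56 (adjusted p = 0.00643). Without αGlu 1, 11 accessory subunits rose and 2 fell, or 37.9% and 6.9% against 23.5% and 25.6% of all genes. Of the core subunits 0 rose and 2 fell in that fit, the latter being 28.6% of 7, near the 25.6% of all genes. The gene models of core subunits were longer, with a median of 2178 exon bases against 1217, and the part of length in this difference was not tested. Ndufa13, the most abundant nuclear member of complex I, had 96.8, 99.9 and 88.5 CPM in Ctr and 98.4, 85.6 and 80.9 CPM in αGlu, with overlap.

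In nuclear complex III the 2 lowest members were Uqcr11 and Uqcrc1. Uqcrc1, a core protein of the matrix side, stood at 144, 139.8 and 133 CPM in Ctr and 119.6, 106 and 112 CPM in αGlu. The groups were clearly apart, at -0.31 ± 0.08 (adjusted p = 0.157), and without αGlu 1 it fell by 0.36 (adjusted p = 0.0151). Uqcr11, a small accessory subunit, gave 41.3, 34.3 and 33.2 CPM in Ctr and 28.8, 29.2 and 29.7 CPM in αGlu. The αGlu libraries were nearly level and below all Ctr libraries, at -0.31 ± 0.10 (adjusted p = 0.164). Uqcrfs1, the Rieske iron-sulphur protein, was lower without overlap too, at -0.18 ± 0.07 (adjusted p = 0.183). It was not called without αGlu 1 (adjusted p = 0.109). The other 6 members overlapped, including Uqcr10 at -0.07 ± 0.09, Uqcrb at 0.01 ± 0.09 and Uqcrq at 0.16 ± 0.17. Thus 3 of 9 were lower without overlap, or 33.3% against 15.9% of all genes, and 0 were higher, against 14.2%. Without αGlu 1, 2 of the 9 fell, or 22.2% against 25.6% of all genes, and 0 rose, against 23.5%.

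Among the 14 nuclear members of complex IV, 2 were higher and 2 lower without overlap. Each is 14.3%, near the 14.2% and 15.9% of all genes. Ndufa4 (chr6:11900292-11907497), which was once assigned to complex I and is now placed in complex IV, had the lowest log2 fold change of all nuclear members. It stood at 69.8, 56.9 and 58.9 CPM in Ctr and 51.0, 35.7 and 38.6 CPM in αGlu. All αGlu libraries were lower, αGlu 1 least, at -0.57 ± 0.16 or 32.6% less (adjusted p = 0.159), and without αGlu 1 Ndufa4 fell by 0.74 (adjusted p = 0.003). Its paralog AA467197 (chr2:122636986-122641191), also known as Nmes1, is no member by symbol. It encodes a protein known to take the place of NDUFA4 in complex IV and is induced in inflammatory activation. AA467197 moved the other way, from 4.77, 7.65 and 5.89 CPM in Ctr to 9.86, 37.8 and 15.6 CPM in αGlu. All αGlu libraries were higher but differed widely among themselves, at 1.79 ± 0.52 (adjusted p = 0.159), and without αGlu 1 it rose by 2.12 (adjusted p = 0.00636). The log2 ratio of AA467197 to Ndufa4 reads was -3.87, -2.90 and -3.32 in Ctr and -2.37, 0.08 and -1.31 in αGlu. In αGlu 2 the reads of the paralog thus reached those of Ndufa4, and the means differed by 2.16, with SDs of 0.49 in Ctr and 1.23 in αGlu.

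Several further subunits of complex IV exist as isoforms. Cox4i1, the ubiquitous form of a regulatory subunit, gave 297, 275 and 282 CPM in Ctr and 251, 225 and 230.5 CPM in αGlu. The groups did not overlap, at -0.27 ± 0.09 (adjusted p = 0.174), and without αGlu 1 it fell by 0.33 (adjusted p = 0.023). Its lung form Cox4i2 had at most 3 counts in a library. Cox6a2, the heart and muscle isoform, was rare, with 14, 6 and 12 counts in Ctr and 21, 81 and 33 counts in αGlu. That is 0.636, 0.251 and 0.557 CPM against 1.20, 2.55 and 1.21 CPM, all αGlu libraries being higher, at 1.79 ± 0.49 (adjusted p = 0.157). Its liver form Cox6a1 was at 112, 98.9 and 85.4 CPM in Ctr and 95.6, 91.7 and 86.2 CPM in αGlu, with overlap, and made up nearly all Cox6a reads in every library. Cox7a1 was near the count minimum at 7 to 17 counts. Cox7a2 differed by -0.01 ± 0.06, and Cox7a2l, a factor of supercomplex assembly, by 0.20 ± 0.11. Both groups overlapped for Cox6b1 and Cox8a, at 0.01 ± 0.09 and -0.14 ± 0.19.

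**Figure D4:**
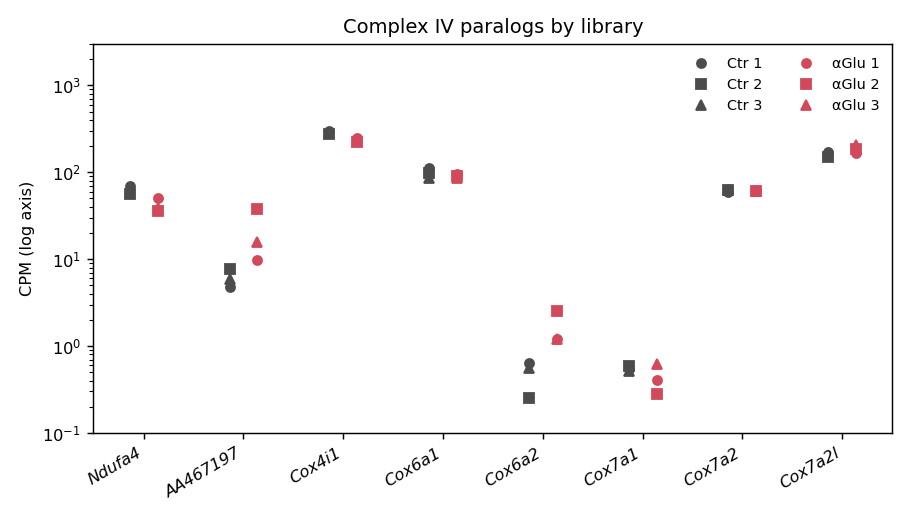
CPM per library, on a log axis, of Ndufa4, its paralog AA467197 and complex IV subunits that have isoforms, Ctr in grey and αGlu in red. Ndufa4 spans 56.9 to 69.8 CPM in Ctr and 35.7 to 51.0 CPM in αGlu, AA467197 spans 4.77 to 7.65 and 9.86 to 37.8 CPM, and Cox6a2 and Cox7a1 stay below 3 CPM.

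In complex V, 4 of the 18 nuclear members were lower and 1 was higher without overlap, or 22.2% and 5.56% against 15.9% and 14.2% of all genes. Without αGlu 1, 3 fell and 1 rose, or 16.7% and 5.56%, both below the 25.6% and 23.5% of all genes. Atp5a1 and Atp5b are the subunits of the catalytic ring. Atp5a1 stood at 638, 561 and 526 CPM in Ctr and 487, 445 and 463 CPM in αGlu. The groups were apart, at -0.31 ± 0.12 (adjusted p = 0.194), and without αGlu 1 it fell by 0.34 (adjusted p = 0.0492). Atp5b gave 668, 636 and 604 CPM in Ctr and 539, 569.7 and 563 CPM in αGlu. It was lower in all αGlu libraries, at -0.19 ± 0.11 (adjusted p = 0.294), and was not called without αGlu 1 (adjusted p = 0.174). The 3 genes Atp5g1, Atp5g2 and Atp5g3 encode the same mature ring subunit c with different import signals. Atp5g1 had 62.6, 58.3 and 55.4 CPM in Ctr and 53.2, 46.1 and 49.3 CPM in αGlu, and Atp5g3 had 122, 107 and 106 CPM in Ctr and 104, 89.5 and 95.5 CPM in αGlu. Both were lower without overlap, at -0.25 ± 0.09 (adjusted p = 0.174) and -0.22 ± 0.10 (adjusted p = 0.231), while Atp5g2 overlapped at -0.01 ± 0.08 (adjusted p = 0.913). Atp5l, a subunit at the dimer interface, was the one higher member, with 129, 124 and 128 CPM in Ctr and 131, 141 and 155 CPM in αGlu. Atp5k, another subunit of the interface, differed by 0.10 ± 0.12. Atp5o is split into 2 rows of the table, and the smaller one, at 2.45 to 15.4 CPM in Ctr, shares its locus with the larger, so the reads of each are uncertain.

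RefSeq promoter windows (GRCm38.p6, 250 bases before to 50 after a start) were matched by symbol for 61 of the 77 nuclear members, 5 of them with 2 windows. The letters CCGGAAG, a core of ETS factors such as GABPA (NRF2), stood on either strand in 15 of these 61 genes, or 24.6%, against 9.93% of all 27025 genes with a window. The NRF1 core GCATGCGC stood in 9, or 14.8% against 3.05%, and the YY1 core AAGATGGC in 10, or 16.4% against 3.19%. Together 29 members held at least 1 of them, or 47.5% against 14.9%. The background was every gene with a window, not matched to the members for expression or base composition. The part of either in these gaps was not tested. The median log2 fold change was 0.00 over the 29 members with a match and -0.03 over the 32 without, with 4 higher and 2 lower against 5 higher and 7 lower without overlap. The 3 windows below belong to a member that was lower, one that was higher and one that was level, and capitals mark the matches.
Uqcr11 (lower), chr10:80406812-80406902, minus strand: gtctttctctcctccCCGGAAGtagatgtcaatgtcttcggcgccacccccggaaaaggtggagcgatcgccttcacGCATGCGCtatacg
Ndufs3 (higher), chr2:90904712-90904763, minus strand: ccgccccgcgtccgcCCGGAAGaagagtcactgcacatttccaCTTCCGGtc
Cox6b1 (level), chr7:30626120-30626157, minus strand: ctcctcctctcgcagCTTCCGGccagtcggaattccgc
In Uqcr11 an ETS match lies ahead of the start and an NRF1 match spans it, in Ndufs3 an ETS match lies on each strand, and in Cox6b1 a single ETS match lies on the opposite strand. A match is a run of letters and does not show that a factor binds there.

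Genes that serve the chain without belonging to it were read from gene lists. For every list, the counts without overlap stand against 14.2% of all genes higher and 15.9% lower, and the counts without αGlu 1 against 23.5% and 25.6%. Complex II, which feeds electrons from succinate, has 4 nuclear subunits. Sdhc, a membrane anchor, gave 91.0, 87.4 and 88.7 CPM in Ctr and 78.3, 74.9 and 77.6 CPM in αGlu, clearly apart at -0.21 ± 0.07 (adjusted p = 0.161). Sdha, the flavoprotein, was lower without overlap at -0.17 ± 0.10, while Sdhb and Sdhd overlapped at 0.04 ± 0.08 and -0.00 ± 0.07. The list of subunits and the inhibitor outside the symbol rule also held Ndufab1 at 0.14 ± 0.10 and the ATP synthase inhibitor Atpif1, besides Atp5md and Atp5mpl, which are members at 0.07 ± 0.09 and 0.05 ± 0.08. Atpif1 stood at 108, 103 and 106 CPM in Ctr and 110.1, 56.4 and 61.1 CPM in αGlu. αGlu 1 lay with Ctr and the other αGlu libraries far below, and without αGlu 1 it fell by 0.85 (adjusted p = 0.000474). Cytochrome c, Cycs, overlapped at 0.12 ± 0.12.

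Mitochondrial ribosomal proteins, which with the rRNAs translate the 13 messages, leaned the other way from those messages. Of 78 genes 58 had a log2 fold change above 0, with a median of 0.12, and 22 were higher and 3 lower without overlap, or 28.2% and 3.85% against 14.2% and 15.9% of all genes. Without αGlu 1, 32 of them rose and 4 fell, or 41.0% and 5.13% against 23.5% and 25.6%. Mrps6, with the smallest p of the list, went against the lean, at 26.5, 26.8 and 19.4 CPM in Ctr and 14.9, 11.7 and 12.7 CPM in αGlu (-0.89 ± 0.16, adjusted p = 0.149). In the lists of mitochondrial DNA maintenance and transcription, 5 of 15 genes were higher and 1 lower without overlap, and 4 rose and 3 fell without αGlu 1. Polg, the catalytic subunit of the mitochondrial DNA polymerase, stood at 17.99, 19.9 and 25.1 CPM in Ctr and 26.04, 44.4 and 46.7 CPM in αGlu. αGlu 1 was just above Ctr 3 and the other two far above it, and without αGlu 1 Polg rose by 1.11 (adjusted p = 0.00154). In mitochondrial RNA processing 2 of 20 genes were higher and 0 lower without overlap, and 6 rose and 1 fell without αGlu 1. The higher ones included Hsd17b10, a subunit of the RNase P that cuts out tRNAs, at 49.5, 55.2 and 54.8 CPM in Ctr and 55.7, 105 and 92.9 CPM in αGlu. Translation factors counted 1 of 9 higher and 0 lower by either measure, the one being the release factor gene Mtrf1 at 0.36 ± 0.11.

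Assembly factors of complex I counted 5 of 15 higher and 1 lower without overlap, but 2 rose and 1 fell without αGlu 1, with Ndufaf3 at 0.33 ± 0.10 (adjusted p = 0.162). All 6 assembly factors of complex III had a log2 fold change above 0, with 2 of them higher without overlap, 3 that rose without αGlu 1, and Uqcc2 at 0.34 ± 0.10 (adjusted p = 0.159). For complex IV 5 of 23 were higher and 1 was lower, the latter being Higd2a at -0.32 ± 0.10 (adjusted p = 0.165), while 4 rose and 2 fell without αGlu 1. For ATP synthase 2 of 5 were higher by either measure and 0 lower, with Tmem242 at 0.32 ± 0.08 (adjusted p = 0.156). Of 13 genes of coenzyme Q synthesis 2 were lower and 0 higher without overlap, with Coq10b at -0.32 ± 0.08 (adjusted p = 0.156). Without αGlu 1, 2 of them rose and 2 fell, and Coq8a, a kinase-like protein of that pathway, stood at 3.82, 2.76 and 3.20 CPM in Ctr and 2.98, 12.4 and 11.4 CPM in αGlu. In Coq8a αGlu 1 lay with Ctr and the other αGlu libraries far above, and without αGlu 1 it rose by 1.87 (adjusted p = 0.000417).

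Of 7 genes of other routes to ubiquinone 2 were lower and 0 higher without overlap, with Etfdh at -0.28 ± 0.07 (adjusted p = 0.156), while 3 rose and 3 fell without αGlu 1. Gpd2, the mitochondrial glycerol-3-phosphate dehydrogenase, gave 22.7, 19.4 and 21.02 CPM in Ctr and 22.1, 50.8 and 61.2 CPM in αGlu. αGlu 1 again lay with Ctr, and without it Gpd2 rose by 1.41 (adjusted p = 0.000254). Sqor, which oxidizes sulphide, rose by 0.57 in that fit (adjusted p = 0.00370), and its αGlu 1 lay within the Ctr range too. Among 11 nuclear regulators of respiratory genes 1 was higher and 3 were lower without overlap, and 3 rose and 3 fell without αGlu 1. Myc, a growth regulator that activates many mitochondrial genes, stood at 30.2, 23.03 and 26.7 CPM in Ctr and 12.8, 1.79 and 2.31 CPM in αGlu, with αGlu 1 between Ctr and the other αGlu libraries. Of 7 carriers and channels 3 were lower and 0 higher without overlap, and 3 fell and 1 rose without αGlu 1. Ucp2, a carrier of the inner membrane, gave 636, 571 and 635 CPM in Ctr and 418, 170.3 and 183 CPM in αGlu, again with αGlu 1 in between, at -1.26 ± 0.37 (adjusted p = 0.160), and without αGlu 1 it fell by 1.80 (adjusted p = 7.29e-05).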

How the data were processed

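Stranded mRNA libraries (3 Ctr, 3 αGlu) were sequenced by the authors, who processed the reads with a QIAGEN analysis portal. The submitters' processing notes name the build GRCm38. The aligner, the annotation and the treatment of reads that fit several genes are not given in the sources used here. The deposited counts are whole reads per gene without normalization, and the deposited TPM values are scaled to gene length and depth by the authors. The 1 row without a gene name was removed. Depth was 17912831 to 30386653 counts per library, and every pair of libraries differed by more than counting noise (chi-square per gene at least 19.8). GENCODE M21 supplied positions.

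Counts were filtered with filterByExpr (minimum count 10, minimum total 15), which left 11933 genes, scaled with TMM factors and tested across all genes in edgeR 4.0.16 (R 4.3.3) with a two-sided quasi-likelihood test of the group. A gene was called at a Benjamini-Hochberg adjusted p under 0.1, with no limit on the fold. CPM are counts per TMM-adjusted library size, except for marker sums, which use library size alone. Log2 fold changes are αGlu over Ctr with their SE. The test recovered known changes in simulated data, whose spread was taken from the Ctr libraries alone. The real αGlu libraries spread more widely, with an r of 0.929 to 0.992 against 0.978 to 0.988 between Ctr libraries. The simulation therefore does not show which changes the test could find in these data. Since the labels number libraries without naming shared cultures, p-values measure the spread between these samples.

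The members and the lists were chosen with earlier results of these data known, and support nothing by themselves. Named by rule were all mitochondrial members, the 2 highest and 2 lowest of each nuclear complex, the 5 nuclear members with the smallest p, a list of paralogs, the most abundant nuclear member of each complex, and the gene with the smallest p of each pathway list, with complex II and the subunits outside the symbol rule in full. Ndufs1, Ndufs3, Ndufv1, Ndufv2, Uqcrfs1, Atp5b, Atp5o, Coq8a, Gpd2, Sqor and the mitochondrial rRNAs were added once their values had been seen. The alternatives changed the test (DESeq2 1.42.0, or voom in limma 3.58.1), the scaling (upper-quartile or RLE factors, none at all, or mt- genes left out), the low-count filter, the threshold, the model (replicate number as a block) and the libraries (each left out). Leaving out libraries for the overlap counts and mt-Co1 for the ratio was chosen after seeing the data.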

Additional observations from a re-analysis of the deposited data

How the results depend on the processing

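With all 6 libraries the count of called members was 0 for both genomes under every scaling, filter and threshold, under limma-voom, and with the replicate number as a block (0 nuclear and 0 mitochondrial). It moved to 8 nuclear and 6 mitochondrial members with DESeq2. Leaving out 1 library gave 0 to 25 called nuclear and 0 to 5 called mitochondrial members, the upper value in each case without αGlu 1. The fit without αGlu 1 called 36 of 61 named genes, where it called 23.5% of all genes as higher and 25.6% as lower. Many of the 61 were named for extreme values or small p in these same data, so this count does not describe the members. Leaving out any other library called 0 named genes. With 1 library left out, counts of nuclear members with no overlap ranged from 27 to 43, against 24 with all libraries. The 43 of 77 (23 higher, 20 lower) came without αGlu 1, where 33.7% of all genes were higher and 32.2% lower. For the other libraries left out, the share of all genes is not given here. The lower counts with library size alone are given above.

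The nuclear median turned to 0.076 with library size alone, and the mitochondrial median stayed between -0.60 and -0.33 under all alternatives. The αGlu minus Ctr difference in the mean log2 ratio of mitochondrial to nuclear reads was -0.39 without mt-Co1 and -0.17 with it; the cause was not tested. No alternative that called a named gene turned its direction, and 0 to 5 uncalled ones changed sign in any alternative, among them mt-Atp8 (-0.18) and Cox8a (-0.14) without Ctr 1, and Uqcrq (0.16) and Atp5k (0.10) without Ctr 3. Same-numbered libraries deviated together weakly (r of 0.08, 0.06 and 0.15), yet each r was above those of the other pairs (-0.11 to 0.05). These values do not decide whether same-numbered libraries share an experiment, which the labels do not state. The main fit therefore held no pairs, and the replicate block turned the sign of 0 named genes and called 0.

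Depth limits mt-Nd6, Cox6a2 and Cox7a1, with at most 81 counts in a library.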
